A study of Danio rerio with 27 samples.

Results

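Molecular chaperones help proteins to fold, to keep their shape and to be taken apart again. Heat shock protein and DNAJ genes were followed across 9 tissues of adult zebrafish. They were taken as every gene whose symbol starts with hspa, hspb, hsp70, hsp90, hspd, hspe, hsph or dnaj, which gave 89 of 32524 genes. By symbol they fell into 4 HSP90 genes, 15 HSP70 genes, 4 HSP110 genes (HSPA4 and HSPH1 relatives), 2 chaperonin genes, 10 small heat shock protein genes, 6 DNAJA, 14 DNAJB and 32 DNAJC genes, with HSPBP1 and HSPBAP1 kept apart. The rule reads symbols and no measured value, although it was set with earlier results of these data known. Poly(A) RNA of wild-type TLAB fish was sequenced in strand-specific libraries from heart, muscle, skin, tail, brain, testis, spleen, intestine and liver. There were 3 libraries per tissue and 27 in all. The labels give no sex or age, and they do not say whether animals were pooled or shared between tissues, so the p-values measure the spread between these libraries, which may be technical. Symbols are printed as the annotation table gives them, and 16 of the genes share 8 symbols in pairs, so these carry their Ensembl identifier.

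HSP70 proteins bind unfolded stretches of a client protein in a cycle driven by ATP. J-domain proteins, the DNAJ family, bring clients to HSP70 and start ATP hydrolysis, and HSP110 proteins release the nucleotide again. HSP90 takes over clients such as kinases, receptors and myosin at a late step of folding, while small heat shock proteins bind unfolding proteins without ATP and are well known from heart and skeletal muscle. Some members are made in every cell, and others, such as the hsp70 genes named for heat induction, are switched on by the transcription factor HSF1.

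Depth ran from 5100481 to 14151312 estimated counts in 26 libraries and was 91119844 in testis replicate 3. TPM stands for transcripts scaled to the same sum in each library. Across genes, the correlation between replicates of 1 tissue was 0.930 to 0.982 on log2(TPM + 1). Defining markers were highest in the labelled tissue for brain, heart, intestine, liver, tail and testis, and nearly so for spleen, where 1648 to 2895 summed TPM stood beside 1685 to 1811 TPM in tail. Skin went against its label, and muscle was not set apart from skin by its markers. Libraries labelled skin held 19170 to 22780 summed TPM of the muscle markers ckma and actc1b, against 19870 to 28890 TPM in libraries labelled muscle. Libraries labelled muscle held 6286 to 10760 summed TPM of the skin markers krt4, krt5, cyt1 and epcam, against 2320 to 4653 TPM in libraries labelled skin and 37550 to 43780 TPM in tail. The words muscle and skin below stand for these labels, and results for each are also given with the other left out. Fewer cells of a type and less RNA per cell cannot be told apart in bulk RNA. Intestine libraries also held 17580 to 31970 summed TPM of exocrine pancreas markers and 5534 to 27980 TPM of liver markers. Pancreas markers summed to 615 to 13020 TPM in spleen, 299 to 1114 TPM in liver and 34.7 to 2163 TPM in testis. Spleen and heart libraries held 18800 to 54150 and 4220 to 18270 TPM of the red blood cell markers hbaa1 and alas2. The part of these cells in the results was not tested.

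Together the 89 genes held 0.254 to 0.876% of the TPM of a tissue. Heart was highest with 0.876 ± 0.123% (SD, n = 3), followed by testis with 0.734 ± 0.0401%, brain with 0.608 ± 0.0390% and tail with 0.548 ± 0.0694%. Liver was lowest with 0.254 ± 0.0492%. The shares in this paragraph are of deposited TPM and were not worked out on another scale. Rescaling by median of ratios divides TPM by 0.221 to 0.433 in liver and by 2.05 to 2.40 in brain and testis. The order of tissues thus depends on the scale. HSP90AB1 and HSPA8 (ENSDARG00000068992), the constitutive forms of HSP90 and HSP70, were the leading pair in 7 tissues, and were preceded by small heat shock genes in heart and skin. In intestine the 5 most abundant members made up 85.9% of what the family held, and in brain 57.3%. Small heat shock proteins held 0.454% of the TPM in heart, 0.161% in skin, 0.0798% in muscle and 0.0122% or less in each other tissue. DNAJC genes held 0.106% in testis and 0.103% in brain, against 0.0146 to 0.0379% in the other tissues.

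**Figure D1:**
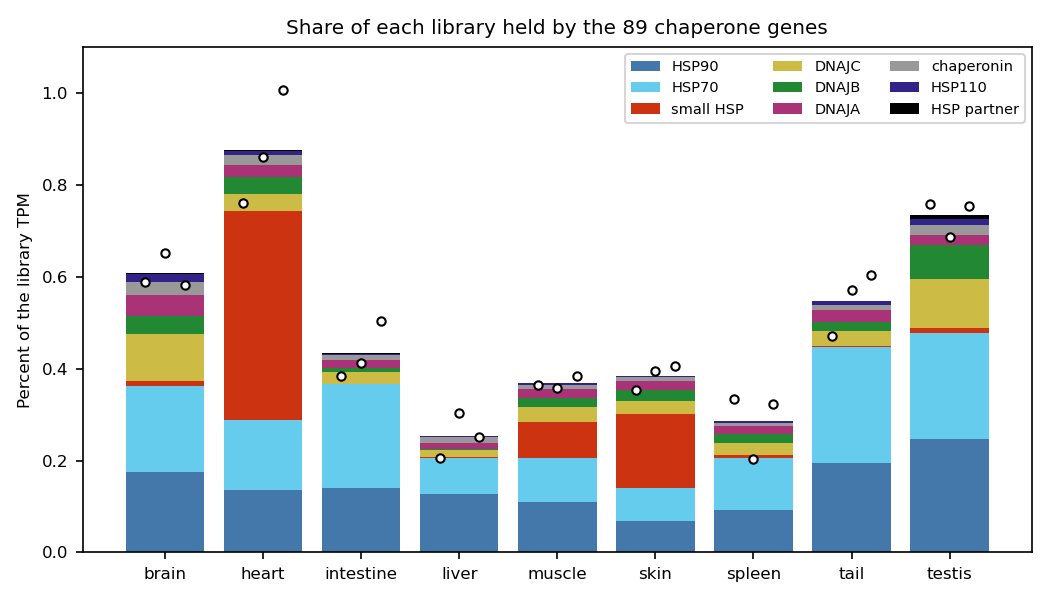
Percent of the TPM of each tissue held by the 89 chaperone genes, stacked by class as the mean of 3 libraries per tissue, with each library as an open circle. On deposited TPM heart stands highest at 0.876%, of which 0.454% is small heat shock proteins, and liver lowest at 0.254%.

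Each tissue was set against the mean of the 8 others with edgeR, and a call needed both an adjusted p below 0.05 and a log2 fold change of 1 or more in either direction. Of the 89 genes, 87 passed the filter of 1 TPM in at least 3 libraries. The HSP70 relatives hspa12a.1 and hspa12a.2 did not, and stayed at or under 0.354 TPM in every library. All 87 differed among tissues in the F test, which called 95.2% of all genes, so this count says little about chaperones. In heart, 26 members were higher (13.7% of all genes were) and 3 lower (11.3% of all genes). In skin, 27 were higher, beside 19.1% of all genes, and 4 lower, beside 5.43%. In muscle, 19 were higher, beside 18.8% of all genes, and 1 lower, beside 3.36%. The members called higher made up 29.9% in heart, 31.0% in skin and 21.8% in muscle of the 87. Chosen after their values were seen, the 3 genes lower in heart were HSPA8 (ENSDARG00000037403), DNAJC22 and dnajc3a, the 4 lower in skin were HSPA4L, DNAJB9 (ENSDARG00000052072), DNAJC11 (ENSDARG00000102696) and DNAJC6, and the gene lower in muscle was DNAJC6.

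Spleen and tail had few members higher. In spleen 5 members were higher, beside 14.4% of all genes, and 23 lower, beside 15.9%. In tail 5 were higher, beside 17.9% of all genes, and 22 lower, beside 16.0%. The 5 in spleen were HSPA4L, HSPA12B, DNAJB9 (ENSDARG00000052072), dnajb2 and DNAJC5B, and the 5 in tail were HSPA5, DNAJB11, DNAJB9 (ENSDARG00000016886), dnajc3a and dnajc5gb. Levels in spleen were low for HSPA4L (0.96, 0.41 and 0.41 TPM) and for DNAJC5B (2.14, 0.495 and 0 TPM, from 8, 1 and 0 counts). The count in spleen fell to 2 without spleen replicate 1 and to 3 without spleen replicate 2, tail replicate 1 or testis replicate 2. In testis 22 members were higher, beside 33.5% of all genes, and 22 lower, beside 20.8%. In brain 16 were higher, beside 24.7% of all genes, and 20 lower, beside 22.5%. In intestine 10 were higher, beside 18.8%, and 17 lower, beside 17.5%, and in liver 13 were higher, beside 15.8%, and 18 lower, beside 21.8%. The median log2 fold change of the members was 0.47 in heart and 0.25 in skin, against -0.17 and 0.04 over all genes, and -0.58 in spleen, against -0.13 over all genes.

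**Figure D2:**
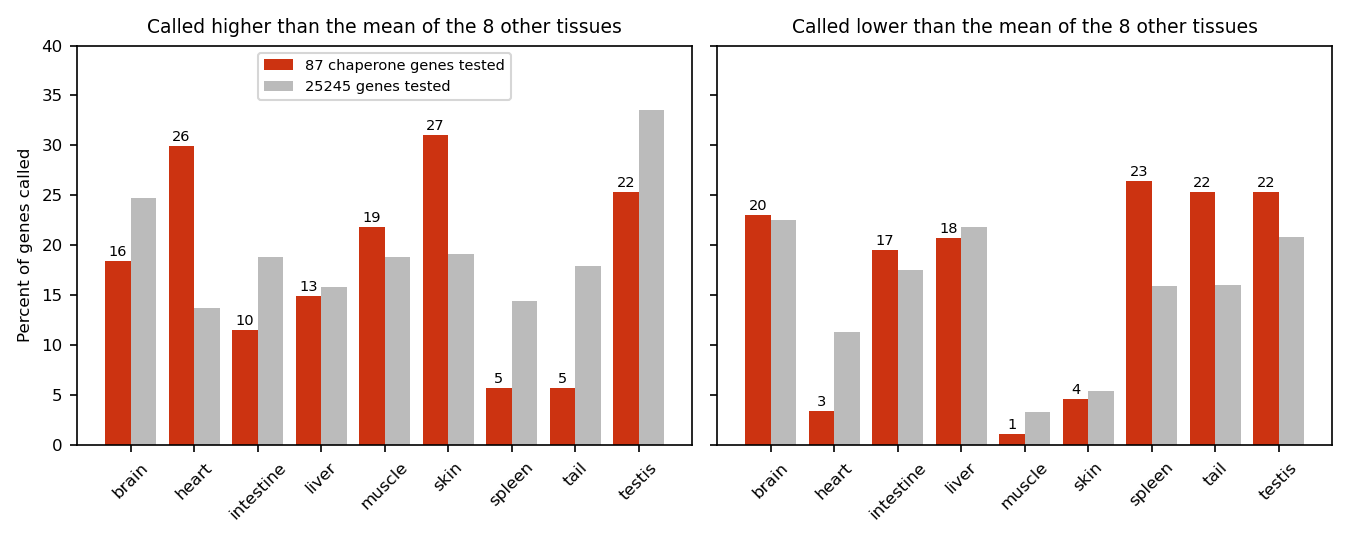
Percent of the 87 chaperone genes tested (left bars, with the number of genes above) and of all 25245 genes tested (right bars) that edgeR called higher or lower in a tissue than the mean of the 8 other tissues. In heart 26 members were higher and 3 lower, while in spleen 5 were higher and 23 lower.

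Without the skin libraries, muscle had 22 members higher, beside 20.4% of all genes, and 1 lower, beside 4.56%. Without the muscle libraries, skin had 26 higher, beside 20.7% of all genes, and 4 lower, beside 6.83%. Heart had 28 members higher with either tissue left out, but the share of all genes was not counted for heart in these fits. These alternatives were chosen after the markers had been seen. On deposited TPM without scaling between libraries, limma called 42 members higher (42.8% of all genes were) and 6 lower (8.85% of all genes) in brain. In testis 43 were higher (46.9%) and 10 lower (5.2%), and in intestine 3 were higher (8.69%) and 36 lower (29.2%). In liver 1 was higher (3.97%) and 60 lower (52.9%), and in skin 16 were higher (7.48%) and 13 lower (14.4%). On the same scale limma called 22 higher (8.28% of all genes) and 5 lower (13.1%) in heart, and 13 higher (8.8%) and 4 lower (4.76%) in muscle. In spleen 2 were higher (9.45%) and 23 lower (15.7%), and in tail 8 were higher (14.8%) and 21 lower (12.3%). That scale moved the median of all genes to 0.75 in brain, 0.89 in testis, -0.65 in intestine and -1.06 in liver, against -0.18, 0.22, -0.23 and -0.48 in edgeR. Of the members called by edgeR, 12 of 36 in brain, 10 of 31 in liver and 7 of 44 in testis had the opposite sign on unscaled TPM, against 0 of 29 in heart, 0 of 20 in muscle and 0 of 27 in tail. Orders of tissues given below are those of deposited TPM. The highest tissue was another one for 40 of the 89 genes once TPM was rescaled by median of ratios, which lowers brain and testis and raises liver and intestine.

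Among HSP90 genes, the 2 cytosolic alpha genes differed in their tissues, although both were called higher in heart. hsp90aa1.1, known in zebrafish for the folding of myosin in striated muscle, had 188, 130 and 259 TPM in heart, 141, 90.5 and 136 TPM in skin and 92.9, 89 and 97.5 TPM in muscle. The other 18 libraries held 0 to 10.2 TPM, the highest of them in testis. Every heart, skin and muscle library thus lay above all others. Against the 8 other tissues the log2 fold change was 7.29 ± 0.18 (SE) in heart (adjusted p = 4.9e-19), 7.11 ± 0.18 in skin and 6.15 ± 0.19 in muscle, and it was lower in liver, where it was at 0 in all 3 libraries. Fitted folds of this and other genes with libraries at 0 depend on the small prior count edgeR adds. Over the 9 tissue means of log2(TPM + 1), the genes most like it were ptges3l (r = 0.992), ldb3a (0.990), TWF2 (0.989), sh3bgr (0.988) and ENSDARG00000117530 (0.987), a description over 9 points that share their libraries.

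HSP90AA1 had another pattern. It reached 219, 235 and 233 TPM in brain and 230.3, 219.7 and 248 TPM in testis, and 101, 48.1 and 50.2 TPM in heart. The other 18 libraries ran between 0.951 TPM in liver and 84.6 TPM in spleen, so that heart and spleen overlapped while brain and testis stood apart from all others and not from each other. Its log2 fold change was 2.08 ± 0.22 in brain (adjusted p = 1.4e-08), 2.14 ± 0.22 in testis (adjusted p = 7.7e-09) and 1.60 ± 0.23 in heart (adjusted p = 4.7e-06). The ratio of hsp90aa1.1 to HSP90AA1 ran from 0 to 13.6 over the 27 libraries. Estimated counts of both were in part fractional, so reads may be shared, and the ratio is uncertain to that extent.

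HSP90AB1, the beta form made in most cells, had tissue means from 523 TPM in skin to 2177 TPM in testis. Testis libraries held 2193, 2080 and 2258 TPM, tail 1725, 1937 and 1984 TPM, and skin 536, 604 and 429 TPM. Testis lay above every other library and tail above all but testis, whereas on rescaled TPM liver was highest. edgeR called it higher in liver (log2 fold change 1.88 ± 0.14, against 0.06 on unscaled TPM) and intestine (1.03 ± 0.15, against 0.25 on unscaled TPM). The same gene was called lower in brain (-1.34 ± 0.19), where unscaled TPM gave the opposite sign (0.36). HSP90B1, the HSP90 of the endoplasmic reticulum, ranged over 22.8 to 76.3 TPM in all 27 libraries. It was called higher in liver (1.23 ± 0.16), where unscaled TPM gave the opposite sign (-0.55).

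**Figure D3:**
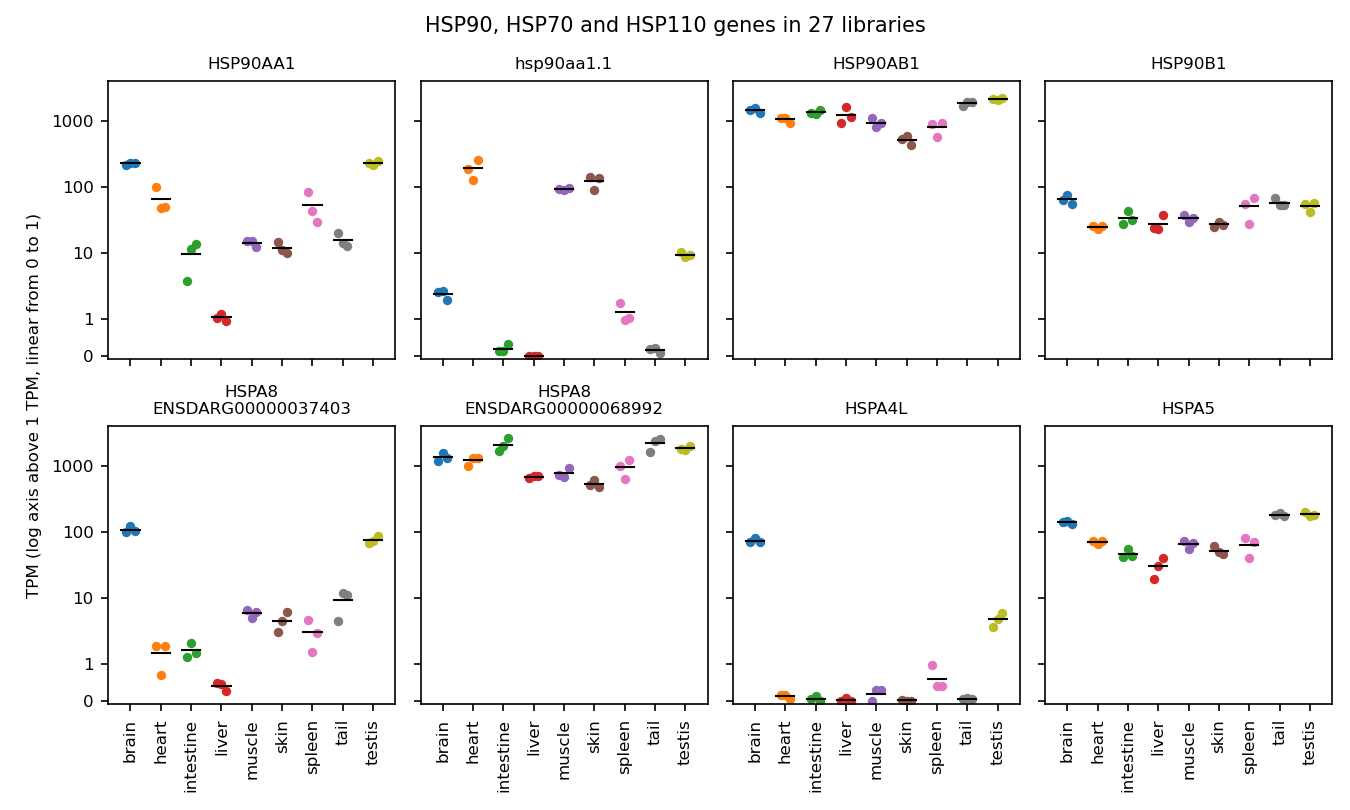
TPM of 8 HSP90, HSP70 and HSP110 genes in each of the 27 libraries (points) with the mean of 3 per tissue (line), on an axis that is logarithmic above 1 TPM. hsp90aa1.1 stood at 89 TPM or more in heart, muscle and skin and at 10.2 TPM or less elsewhere, while HSP90AB1 stayed at 429 TPM or more in every library.

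The pair of genes named HSPA8, the constitutive cytosolic HSP70, differed in breadth. HSPA8 (ENSDARG00000068992) had 488 to 2673 TPM in every library. Its intestine libraries held 1699, 2010 and 2673 TPM and its tail libraries 1652, 2422 and 2583 TPM, and these overlapped with each other and with testis. Skin libraries held the least, with 519, 624 and 488 TPM. The log2 fold change was 1.71 ± 0.17 in intestine (adjusted p = 5.5e-09) and -1.16 ± 0.22 in brain, where unscaled TPM gave the opposite sign (0.25). HSPA8 (ENSDARG00000037403) had 102, 123.1 and 103 TPM in brain and 69.5, 74.3 and 86.6 TPM in testis, against 0.255 to 12.1 TPM in the other 21 libraries. Brain and testis did not overlap with each other or with the rest, and the log2 fold change was 3.57 ± 0.19 in brain (adjusted p = 3.6e-14) and 3.05 ± 0.20 in testis (adjusted p = 1.7e-12). How reads shared by such near copies were divided is set by the authors' quantification, so levels of paralogues are uncertain to that extent.

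HSPA4L, an HSP110 gene whose mouse counterpart is known from testis, was highest in brain. Brain libraries held 69.8, 81.3 and 69.6 TPM, testis libraries 3.68, 4.86 and 5.85 TPM, and the other 21 libraries 0.960 TPM or less, 6 of them at 0. Brain was 15.3 times testis, and testis lay above every other tissue. The log2 fold change was 7.73 ± 0.26 in brain (adjusted p = 2.8e-18) and 3.36 ± 0.32 in testis. HSPH1 was called higher in heart (8.94, 6.07 and 5.90 TPM, log2 fold change 1.48 ± 0.19) and lower in intestine, where it had 0.349, 0.363 and 0.167 TPM (-2.78 ± 0.29). Brain held more HSPH1 than heart on deposited TPM, with 10.8, 12.5 and 12.01 TPM, and less on rescaled TPM. HSPA4 (ENSDARG00000004754) was higher in heart, with 54.2, 62.3 and 78.9 TPM (log2 fold change 1.43 ± 0.17, adjusted p = 1.6e-07), although tail and testis overlapped with these values.

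HSPA12A and HSPA12B are distant relatives of HSP70. HSPA12A had 39.6, 38.5 and 39.3 TPM in brain, against 0.0827 to 14.3 TPM in the other 24 libraries (log2 fold change 3.03 ± 0.20, adjusted p = 2.6e-12). HSPA12B, known from endothelial cells in mouse, had 29.2, 22.6 and 23.6 TPM in heart and 14.4, 12.3 and 12.8 TPM in spleen, against 0.0280 to 7.63 TPM in the other 21 libraries. Heart lay above spleen and spleen above the rest, with log2 fold changes of 3.27 ± 0.22 and 1.98 ± 0.23 (adjusted p = 5.4e-12 and 2.1e-07). The gene listed as HSPA2 had 7.41, 4.41 and 5.59 TPM in testis and was called lower there (log2 fold change -1.75 ± 0.45, adjusted p = 0.0015), a call lost on unscaled TPM (-0.29). It was higher in heart, with 55.6, 24.0 and 22.3 TPM, all above the 20.1 TPM of the next library (log2 fold change 2.62 ± 0.32, adjusted p = 3.1e-07). On rescaled TPM heart overlapped with another tissue. HSPA2 was also called higher in muscle (19.8, 8.39 and 10.1 TPM) and skin (20.1, 9.42 and 7.93 TPM). Estimated counts of HSPA2 were fractional, like those of hsp70.1, hsp70.3 and hsp70l, so reads may be divided between it and other genes.

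The genes named for heat induction were low in these fish. hsp70.1 had 17.6, 10.5 and 9.56 TPM in heart, against 0.192 to 6.87 TPM in the other 24 libraries, and hsp70l had 47.0, 30.1 and 21.0 TPM in heart, against 1.06 to 21.5 TPM elsewhere. Heart lay above every other library for hsp70.1, while the lowest heart library and the highest testis library overlapped for hsp70l. In heart the log2 fold change was 2.46 ± 0.37 for hsp70.1 (adjusted p = 8.8e-06) and 2.14 ± 0.28 for hsp70l (adjusted p = 1e-06). Beside this, summed TPM of 5 immediate early genes, which respond within minutes to handling, was 33.1, 161 and 226 in the same heart libraries. In heart and in intestine the library with the most hsp70.1 held the least of these. In brain, skin, spleen and testis, by contrast, replicate 1 held the most of both. In liver, muscle and tail the most of each was in different libraries. Immediate early genes summed to 208 to 624 TPM in skin, 274 to 484 TPM in tail and 237 to 274 TPM in brain, where hsp70.1 stayed at 6.87 TPM or less. Their part in the hsp70 levels was not tested. hspa1b had 6.29, 7.91 and 5.56 TPM in heart, 4.30, 1.92 and 4.05 TPM in skin and 9.36, 4.18 and 5.26 TPM in muscle, with log2 fold changes of 3.6 ± 0.27, 3.13 ± 0.27 and 3.6 ± 0.27. hsp70.3 had 0 to 7.69 TPM over the 27 libraries and was called higher in muscle (1.18 ± 0.40) and skin (1.45 ± 0.39), where its values overlapped with other tissues. The call in muscle was lost without muscle replicate 1 (adjusted p = 0.15) or 3 (adjusted p = 0.091), and that in skin without skin replicate 1 (adjusted p = 0.071). hsp70.1, hsp70.3 and hsp70l are near copies, so reads may be divided between them. For hspa1b the skin library at 1.92 TPM overlapped with testis, where the highest value was 2.46 TPM, and with 1 brain library at 1.95 TPM.

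Chaperones of the endoplasmic reticulum help secreted proteins to fold. HSPA5 (BiP), their HSP70, had 182, 197 and 173 TPM in tail and 203, 175 and 184 TPM in testis, which overlapped, against 19.8 to 149 TPM in the other tissues. It was called higher in tail (log2 fold change 1.11 ± 0.14, adjusted p = 4.1e-07). Its J-domain partner DNAJB11 had 20.8, 17.7 and 31.3 TPM in tail (1.16 ± 0.20, adjusted p = 4e-05, falling to 0.88 without tail replicate 3), which overlapped with brain and testis. DNAJB11 followed HSPA5 with r = 0.914 over the 27 libraries on log2(TPM + 1), while HSP90B1 did so with r = 0.767 and dnajc3a with r = 0.350. These points are triplicates of 9 tissues and share their library scaling, and no test was made. DNAJB9 (ENSDARG00000016886), a J-domain gene of the unfolded protein response, had 21.8, 26.4 and 30.8 TPM in tail, against 0.211 to 9.96 TPM in the other 24 libraries, with a log2 fold change of 2.75 ± 0.22 (adjusted p = 1.1e-10). dnajc3a, another J-domain gene of this compartment, had 19.0, 23.4 and 32.4 TPM in intestine (2.19 ± 0.25, adjusted p = 8.2e-08), and 1 library each of liver and muscle lay inside that range and 1 of tail above it. Exocrine pancreas markers were at 17580 TPM or more in the same intestine libraries and at 35.8 TPM or less in tail. They were at 615 to 13020 TPM in spleen, where dnajc3a had 4.53, 2.36 and 5.52 TPM and was called lower. The part of pancreas cells in these levels was not tested.

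Mitochondrial chaperones serve the proteins imported into the matrix. HSPA9 (mortalin), the HSP70 of the matrix, had 119, 122.6 and 117 TPM in brain and 89.5, 71.6 and 85.4 TPM in heart, against 32.4, 22.1 and 25.2 TPM in spleen. The spleen libraries overlapped with liver, where 1 library had 19.95 TPM. HSPA9 was called lower in spleen (log2 fold change -1.28 ± 0.17, adjusted p = 1.4e-06). HSPE1, the lid of the HSPD1 chaperonin cage, was lower in spleen as well, with 35.1, 20.8 and 30.1 TPM against 52.4 to 220.0 TPM in all 24 other libraries (-1.87 ± 0.22, adjusted p = 1.7e-07), and it was higher in heart (175, 126 and 191 TPM, 1.06 ± 0.17, falling to 0.89 without heart replicate 3), although brain lay above heart and testis overlapped with it on deposited TPM. HSPD1 and HSPE1 correlated with r = 0.775 over the 27 libraries on log2(TPM + 1), again with triplicates and library scaling shared. In liver, HSPD1 (1.41 ± 0.12), HSPE1 (1.75 ± 0.16) and HSPA9 (1.13 ± 0.14) were called higher by edgeR, yet unscaled TPM gave -0.34, 0.05 and -0.65, and liver TPM of HSPD1 was 19.8, 33.5 and 24.0, against 13.2 to 84.1 in the other libraries. DNAJC15 and DNAJC19 belong to the motor that draws proteins into the matrix. DNAJC15 was higher in heart, with 34.8, 30.3 and 38.4 TPM (1.64 ± 0.12). Brain libraries lay above heart on deposited TPM, with 44.6, 39.0 and 39.1 TPM, while heart was highest on rescaled TPM. DNAJC19 was higher in skin, with 42.1, 34.5 and 35.1 TPM (2.23 ± 0.15, adjusted p = 7.9e-12), and overlapped with testis.

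Small heat shock proteins were called higher in heart (8 of 10), muscle (9 of 10) and skin (9 of 10), beside 13.7, 18.8 and 19.1% of all genes, and none was called lower in these 3. The counts include hspb9 in heart and hspb15 in muscle and skin, which had 3.57 TPM or less there. The class median log2 fold change was 5.67 in heart, 3.83 in muscle and 5.38 in skin, beside -0.17, 0.08 and 0.04 over all genes. With skin left out muscle still had 9 of 10 higher, with muscle left out skin had 9 of 10, and heart had 8 of 10 either way. Elsewhere, 5 of 10 were called lower in tail (16.0% of all genes were), 4 in intestine (17.5%), 4 in brain (22.5%), 3 in liver (21.8%), 3 in spleen (15.9%) and 3 in testis (20.8%). In brain 2 of 10 were called higher (24.7% of all genes were), in testis 2 (33.5%) and in liver 1 (15.8%), none above those shares. The heart markers MYL7, nppa and cmlc1 were at 3 counts or fewer in every skin library, and at 38.0 summed TPM or less in muscle, against 36040 or more in heart.

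hspb9l, HSPB1 and HSPB7 were each above 800 TPM in every heart library. hspb9l had 839, 1427 and 1780 TPM in heart, 136, 95.5 and 171 TPM in skin and 48.6, 67.8 and 79.6 TPM in muscle, against at most 0.555 TPM in the other 18 libraries. HSPB1 (Hsp27), which binds actin and unfolding proteins, had 1076, 1100.0 and 1574 TPM in heart, 206, 244 and 318 TPM in skin and 156, 268 and 193 TPM in muscle, against 2.90 to 58.5 TPM in the other 18. HSPB7, a heart form needed for thin filaments in mouse, had 1018, 1054 and 1477 TPM in heart, 93.9, 83.6 and 122 TPM in skin and 20.1, 29.7 and 23.2 TPM in muscle, against 0 to 6.62 TPM in the other 18. For all 3 genes heart lay above skin and muscle and these above the rest, and for hspb9l and HSPB7 skin also lay above muscle without overlap. Heart was 10.0 times skin for hspb9l, 4.89 times skin for HSPB1 and 11.8 times skin for HSPB7. The heart values gave a log2 fold change of 11.17 ± 0.24 for hspb9l (adjusted p = 3.5e-20), 5.88 ± 0.19 for HSPB1 (adjusted p = 4.3e-18) and 9.20 ± 0.25 for HSPB7 (adjusted p = 2e-19). In skin these genes had 7.97, 3.82 and 5.72, and in muscle 6.28, 2.97 and 2.92.

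hspb6 (Hsp20), a target of cyclic nucleotide kinases in smooth and heart muscle, had another order. It reached 718, 1021 and 1147 TPM in skin, 340, 672 and 699 TPM in heart and 279, 434 and 339 TPM in muscle, against 0.163 to 57.0 TPM in the other 18 libraries. Every skin library lay above every heart and muscle library, and heart and muscle overlapped. The log2 fold change was 6.8 ± 0.27 in skin (adjusted p = 1.4e-16), 5.46 ± 0.27 in heart and 4.69 ± 0.27 in muscle. hspb9 was of low level in heart, although edgeR called it higher there (3.09 ± 0.71, adjusted p = 0.0016, against 0.16 on unscaled TPM). It had 47.0, 55.5 and 122 TPM in skin and 22.0, 53.7 and 73.1 TPM in muscle, which overlapped, against 1.098, 2.37 and 3.57 TPM in heart and 0 in 13 of the other 18 libraries (log2 fold change 9.31 ± 0.36 in skin and 8.12 ± 0.39 in muscle).

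HSPB2 and HSPB3 form a complex in mammalian muscle. HSPB2 had 63.4, 47.5 and 42.7 TPM in heart, 12.5, 14.5 and 15.5 TPM in skin and 13.8, 17.4 and 7.71 TPM in muscle. The other 18 libraries reached 8.22 TPM in testis, which overlapped with muscle. HSPB3 had 40.4, 27.3 and 69.9 TPM in heart, 20.9, 17.0 and 21.4 TPM in skin and 30.2, 52.3 and 29.7 TPM in muscle. Brain followed with up to 14.6 TPM, and 12 of the other 18 libraries were at 0. HSPB8, which works with BAG3 in the clearance of damaged muscle proteins, had 58.0, 88.3 and 103 TPM in heart, 35.3, 42.8 and 50.6 TPM in skin and 42.5, 55.4 and 47.0 TPM in muscle. Testis overlapped with these, at 54.0, 34.7 and 53.0 TPM. The log2 fold changes of HSPB2, HSPB3 and HSPB8 in heart were 7.0 ± 0.27, 6.14 ± 0.43 and 3.24 ± 0.20, in skin 5.44, 5.31 and 2.85, and in muscle 4.82, 5.83 and 2.40.

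The remaining pair of genes placed in this class was highest outside heart, muscle and skin. Their class, like that of the others, rests on the symbol alone, and no protein sequence was read. hspb15 had 22.5, 29.4 and 28.4 TPM in brain, against 0 to 1.56 TPM in the other 24 libraries, and its log2 fold change there was 6.04 ± 0.29 (adjusted p = 3e-15). At 0.405 to 1.56 TPM it was also called higher in muscle (2.39 ± 0.46) and skin (2.21 ± 0.45), where unscaled TPM gave 0.24 in muscle and the opposite sign in skin (-0.12). hspb11 had 55.0, 51.9 and 36.5 TPM in testis, against 0 to 13.5 TPM elsewhere, with brain next (3.11 ± 0.32, adjusted p = 8.9e-09). Neither overlapped with another tissue.

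**Figure D4:**
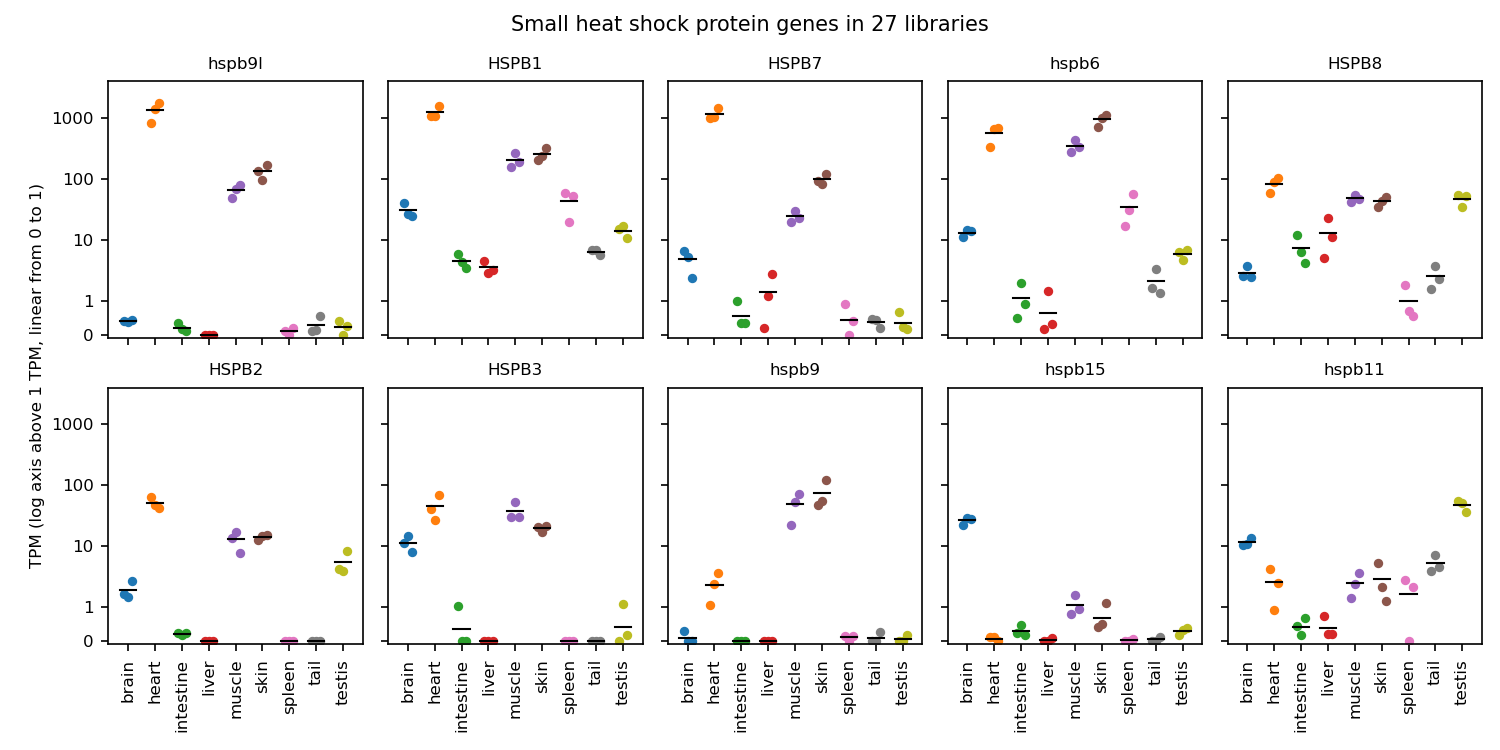
TPM of the 10 small heat shock protein genes in each of the 27 libraries (points) with the mean of 3 per tissue (line), on an axis that is logarithmic above 1 TPM. hspb9l, HSPB1 and HSPB7 peak in heart at means of 1349, 1250.0 and 1183 TPM, hspb6 in skin at 962 TPM, hspb15 in brain at 26.8 TPM and hspb11 in testis at 47.8 TPM.

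Several J-domain genes were also higher in heart, skin and muscle. dnajb6b, whose human counterpart is mutated in a limb-girdle muscular dystrophy, had 80.1, 82.1 and 91.0 TPM in heart, 51.2, 57.9 and 76.0 TPM in skin and 25.9, 35.6 and 27.3 TPM in muscle. Heart lay above skin and skin above muscle, while testis and tail libraries overlapped with muscle. The log2 fold change was 2.90 ± 0.15 in heart (adjusted p = 2.5e-14), 2.93 ± 0.14 in skin (adjusted p = 1.4e-14) and 1.14 ± 0.17 in muscle, the last falling to 0.96 without muscle replicate 2. Its paralogue dnajb6a was not called in any tissue and had most TPM in testis and brain, with means of 115 and 89.4 TPM. The gene listed as dnaja had 93.1, 49.3 and 60.3 TPM in heart, 60.3, 41.5 and 54.3 TPM in skin and 36.9, 35.9 and 45.4 TPM in muscle, against 1.20 to 45.4 TPM elsewhere. Testis overlapped with muscle and skin, and brain with muscle. For dnaja the 3 tissues had log2 fold changes of 1.99 ± 0.15, 2.13 ± 0.15 and 1.17 ± 0.17. dnajc18 was higher in muscle (40.9, 40.5 and 25.9 TPM, 1.84 ± 0.19) and skin (22.1, 24.8 and 29.4 TPM, 1.75 ± 0.19), although brain and testis held more deposited TPM, with means of 51.1 and 54.5.

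DNAJB4 and DNAJB5, cytosolic partners of HSP70, were shared by brain, heart, skin and muscle. DNAJB4 had 49.1, 72.8 and 81.6 TPM in brain, 71.2, 43.5 and 63.0 TPM in heart, 60.1, 59.2 and 68.7 TPM in skin and 30.4, 37.6 and 36.2 TPM in muscle, against 0 to 4.72 TPM in the other 15 libraries. DNAJB5 had 15, 19.0 and 23.1 TPM in brain, 11.2, 10.0 and 16.9 TPM in heart, 5.15, 5.76 and 11.3 TPM in skin and 7.76, 10.2 and 9.61 TPM in muscle, against 0 to 2.55 TPM in the other 15. All 12 libraries of these 4 tissues lay above all others for both genes. The log2 fold change of DNAJB4 was 4.59 ± 0.17 in skin (adjusted p = 6.4e-17), 3.98 ± 0.18 in heart, 3.15 ± 0.19 in muscle and 2.65 ± 0.19 in brain, and that of DNAJB5 was 3.08 ± 0.30 in heart, 2.75 ± 0.31 in skin, 2.59 ± 0.32 in muscle and 2.19 ± 0.31 in brain. dnajb2, which in mammals links HSP70 to the proteasome in neurons, had 68.3, 79.5 and 74.0 TPM in heart (1.66 ± 0.25, adjusted p = 9.4e-06) and 83.6, 50.2 and 30.5 TPM in spleen, with testis reaching 90.8 TPM and with brain and skin libraries inside the spleen range. The spleen fold change (1.01 ± 0.27, adjusted p = 0.0032) stood at the fold limit and fell to 0.76 without spleen replicate 1 (adjusted p = 0.073). Red blood cell markers summed to 4220 to 18270 TPM in heart and 18800 to 54150 TPM in spleen, against 41.7 to 105.6 TPM in testis. Their part in the dnajb2 levels was not tested.

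In brain 6 of 32 DNAJC genes were higher and 7 lower, beside 24.7 and 22.5% of all genes. DNAJC5 (ENSDARG00000042948), a form of cysteine string protein, which guards synaptic vesicle release, had 203, 221 and 211 TPM in brain, against 0 to 11.3 TPM in the other 24 libraries (log2 fold change 6.46 ± 0.20, adjusted p = 5.3e-19). DNAJC6 (auxilin), which brings HSC70 to clathrin coats in neurons, had 51.1, 55.4 and 52.5 TPM in brain (5.89 ± 0.16, adjusted p = 8e-20). Intestine followed for DNAJC6 in edgeR with 1.0, 3.34 and 2.02 TPM (2.98 ± 0.19), a value that was 0.14 on unscaled TPM. Testis, with 4.28, 2.66 and 3.82 TPM, and 1 tail library, with 4.53 TPM, held as much or more. DNAJC16 (ENSDARG00000059699) had 19.4, 21.3 and 17.5 TPM in brain, against 0 to 3.24 TPM elsewhere (4.57 ± 0.25, adjusted p = 5.2e-14). DNAJA2 (ENSDARG00000010745), a cytosolic partner of HSP70, had 195, 222 and 185 TPM in brain, against 8.98 to 33.6 TPM in the other 24 libraries (2.12 ± 0.10, adjusted p = 3.6e-15). None of the 3 brain libraries overlapped with another tissue for any of these 4 genes.

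Paralogues of these genes were present more widely. DNAJA2 (ENSDARG00000104066) had the lowest tissue specificity of the 87 members (tau 0.0738, an index explained further on), at 71.2 to 169 TPM in all 27 libraries. DNAJC5 (ENSDARG00000004836) was highest in brain with 48.5, 51.1 and 56.5 TPM and present at 1.14 TPM or more in every library, and DNAJC16 (ENSDARG00000060725) had 13.5 to 19.1 TPM in brain and testis, against 1.45 to 8.42 TPM elsewhere. The ratio of DNAJC5 (ENSDARG00000004836) to DNAJC5 (ENSDARG00000042948) ran from 0.231 to 74.5 over the libraries, and that of DNAJA2 (ENSDARG00000010745) to DNAJA2 (ENSDARG00000104066) from 0.0836 to 1.74. DNAJC27, which joins a J domain to a small GTPase, was shared by brain (34.2, 36.5 and 31.8 TPM, 2.35 ± 0.13) and testis (27.6, 21.6 and 28.3 TPM, 1.5 ± 0.14), against 4.62 TPM or less elsewhere. DNAJC11 (ENSDARG00000102696), one of 2 genes for a protein of mitochondrial cristae, had 18.3, 15.9 and 20.5 TPM in testis and 11.6, 9.96 and 12.3 TPM in brain, against 0.0871 to 0.588 TPM in the other 21 libraries (3.63 ± 0.16 in testis and 2.86 ± 0.18 in brain). Its paralogue DNAJC11 (ENSDARG00000011196) was found at 3.47 TPM or more in every library and was highest in testis, with 42.3, 36.3 and 38.2 TPM.

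In testis 13 of 32 DNAJC genes were higher and 6 lower, beside 33.5 and 20.8% of all genes, so the class lay near the background. DNAJB13, which sits in the flagellar axoneme of human sperm, had 369, 239 and 248 TPM in testis, against 0 to 7.85 TPM in the other 24 libraries. Its log2 fold change was 8.73 ± 0.36 (adjusted p = 4e-16). Muscle replicate 2 held the 7.85 TPM, beside 0.271 and 2.03 TPM in the other muscle libraries and up to 20.5 summed TPM of the testis markers in a muscle library. The call of DNAJB13 in muscle (2.74 ± 0.63, adjusted p = 0.0014) was lost without that library (1.19, adjusted p = 0.25). DNAJC9, a chaperone of histones H3 and H4 in dividing cells, had 178, 161 and 134 TPM in testis, against 1.97 to 42.2 TPM in the other libraries (2.89 ± 0.14, adjusted p = 4.6e-15). dnajb1b, an HSP70 partner of the stress response, had 110.0, 104 and 79.9 TPM in testis, against 1.82 to 40.2 TPM elsewhere (1.45 ± 0.28, adjusted p = 8.7e-05).

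Other testis genes were lower in level. DNAJC10 (ERdj5), a disulphide reductase of the endoplasmic reticulum, had 37.9, 31.5 and 41.4 TPM in testis, against 0.725 to 7.81 TPM in the other 24 libraries (1.97 ± 0.14). DNAJC17, which takes part in splicing, had 32.8, 22.0 and 26.7 TPM, against 0.849 to 8.31 TPM (2.07 ± 0.18). DNAJC24, needed to make the diphthamide residue of elongation factor 2, had 28.9, 22.5 and 17.8 TPM, against 0.705 to 4.48 TPM (1.88 ± 0.24). All 3 lay above every other library. DNAJC12, a partner of the aromatic amino acid hydroxylases, had 127, 78.3 and 85.8 TPM in testis and 64.1, 27.6 and 55.3 TPM in heart, with brain (25.9 to 32.4 TPM) overlapping heart (2.04 ± 0.26 in testis and 2.46 ± 0.27 in heart). HSPBP1, an exchange factor of HSP70, had 68.8, 63.4 and 59.4 TPM in testis, against 2.96 to 20.3 TPM elsewhere (1.61 ± 0.13, adjusted p = 1.4e-10). HSPBAP1 had 8.10, 7.08 and 8.18 TPM, against 0.113 to 2.66 TPM (1.56 ± 0.24, adjusted p = 2.7e-06).

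Intestine and liver shared DNAJC22, whose fly counterpart acts in endocytosis. It had 31.9, 39.4 and 31.2 TPM in intestine and 13.9, 19.0 and 25.4 TPM in liver, against 0 to 0.901 TPM in the other 21 libraries. On deposited TPM intestine lay above liver and liver above all others, while on rescaled TPM intestine and liver overlapped, with means of 54.8 and 57.9. The log2 fold changes of DNAJC22 were 7.10 ± 0.21 in intestine (adjusted p = 4.2e-19) and 7.13 ± 0.21 in liver (adjusted p = 6.9e-19), beside liver markers of 5534 to 27980 summed TPM in intestine and 114400 or more in liver. dnajc5gb was shared by intestine (18.7, 20.6 and 22.2 TPM, 2.18 ± 0.12) and tail (20.8, 20.5 and 24.0 TPM, 1.20 ± 0.13), against 3.39 to 12.2 TPM in the other 21 libraries. edgeR also called it higher in liver (3.39, 5.94 and 7.28 TPM, 1.01 ± 0.13), where unscaled TPM gave the opposite sign (-0.71). Its paralogue dnajc5ga was highest in brain, with 58.6, 44.0 and 48.8 TPM.

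**Figure D5:**
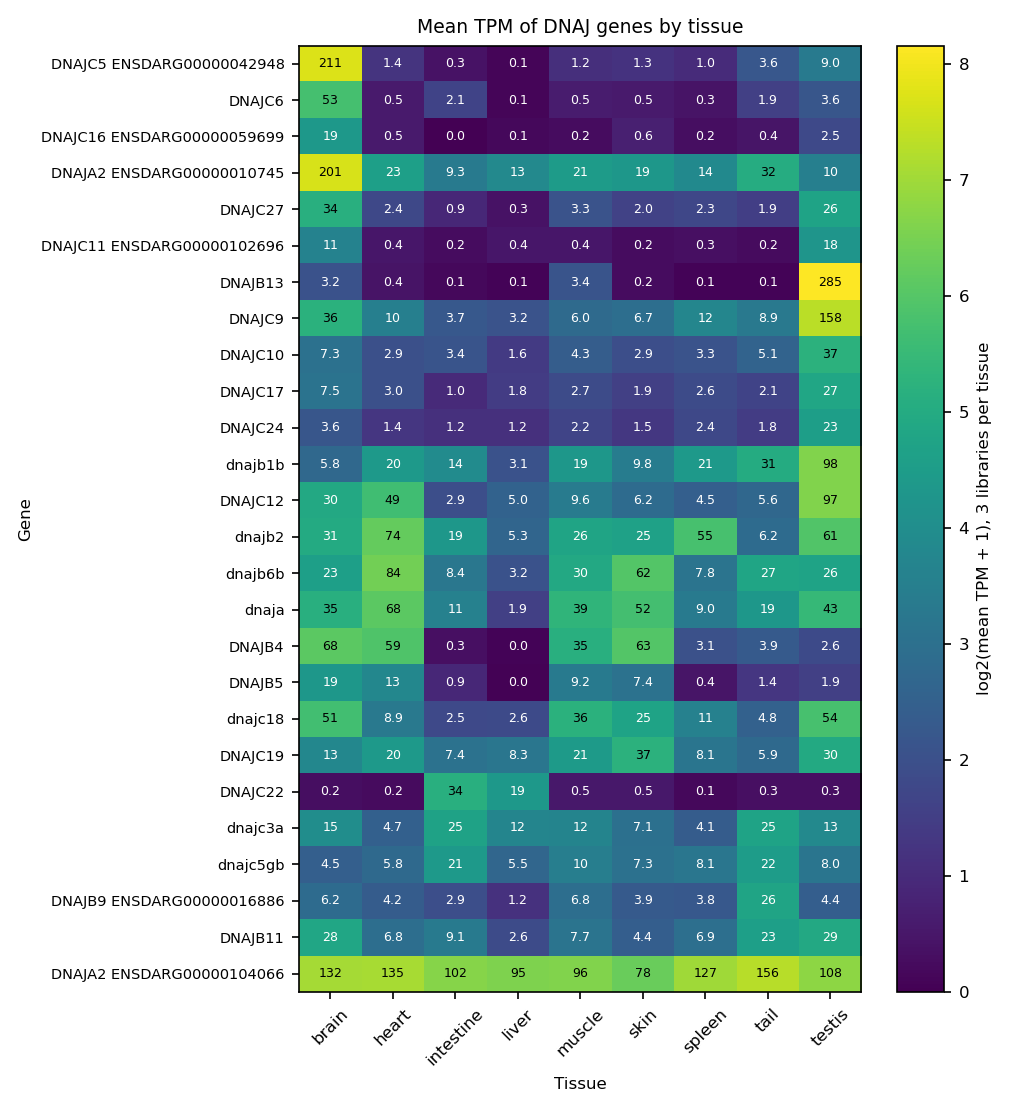
Mean TPM of DNAJ genes in 9 tissues, 3 libraries each, coloured as log2(mean TPM + 1) with the mean printed in each cell. DNAJC5 (ENSDARG00000042948) reached 211 TPM in brain, DNAJB13 285 TPM in testis, dnajb6b 84.4 TPM in heart and DNAJC22 34.2 TPM in intestine.

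Tau, an index that is 0 for equal log2(TPM + 1) in all 9 tissues and 1 for a gene found in a single tissue, had a median of 0.452 over the 87 members and 0.599 over all genes tested. It was at least 0.8 for 10 members (11.5%), against 26.8% of all genes. These 10 were hspb15, DNAJB13, HSPA4L, DNAJC16 (ENSDARG00000059699), hspb9, DNAJC6, DNAJC22, DNAJC5 (ENSDARG00000042948), hspb9l and DNAJC11 (ENSDARG00000102696). By class the median ran from 0.206 for chaperonins and 0.267 for DNAJA to 0.714 for small heat shock proteins. Of the 87 members, 31 were called higher in exactly 1 tissue (35.6%, beside 30.4% of all genes) and 11 were called in none (12.6%, beside 10.4% of all genes), both near the background. The 11 were HSPA4 (ENSDARG00000018989), HSPA13, both DNAJB12 genes, dnajb6a, DNAJC16 (ENSDARG00000060725), DNAJC2, DNAJC25, DNAJC7, dnajc3b and dnajc8. On deposited TPM they were lowest in liver and highest in brain or testis, as with DNAJC7 at 132 TPM in brain and dnajc8 at 149 TPM in testis, but on rescaled TPM 7 of them were highest elsewhere, such as DNAJC7 in heart. Among members not yet described, dnaja3b and dnajc4 were higher in skin and DNAJC21 in testis (mean 25.1 TPM). HSPA14 was called higher in liver (1.43 ± 0.14) with the opposite sign on unscaled TPM (-0.34).

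Genes that work with these chaperones but lie outside the symbols were read from fixed lists. Of the names listed, 13 of 22 Hsp90 co-chaperones, 12 of 12 Hsp70 co-chaperones, 5 of 6 regulators and 9 of 14 other chaperones matched a symbol. Names without a match, such as smyd1a, smyd1b, ptges3a, ptges3b, cryaba and cryabb, are missing from the counts below. Of 14 Hsp90 co-chaperone genes tested, 3 were higher in heart, 2 in muscle and 2 in skin, near the 13.7, 18.8 and 19.1% of all genes. The 3 in heart include TRAP1 (log2 fold change 1.11), which the list holds although it is an HSP90 itself and not a co-chaperone. UNC45B, which folds myosin together with HSP90, had mean levels of 97.0 TPM in heart, 17.1 TPM in skin and 11.5 TPM in muscle, against 0.482 to 5.34 TPM elsewhere, and AHSA1 (ENSDARG00000028664) was higher in the same 3 tissues. Of 13 Hsp70 co-chaperone genes, 2 were higher in each of heart, muscle and skin, namely BAG2 and BAG3, again near those shares. BAG2 was also higher in liver. BAG3, the partner of HSPB8, had mean levels of 154 TPM in heart, 57.1 TPM in skin and 36.7 TPM in muscle, against 2.96 to 20.2 TPM elsewhere. BAG5 was higher in spleen, with a mean of 45.5 TPM, and lower in skin, with 1.73 TPM. Of 4 regulators tested (hsf1, HSF2, hsf5 and hsbp1b), hsf1 was higher in heart (mean 33.2 TPM), beside 13.7% of all genes, although testis held a mean of 33.7 TPM. HSF2 was higher in liver, beside 15.8% (log2 fold change 1.045), at a mean of 13.6 TPM against 11.5 to 65.9 TPM elsewhere. In testis hsf5 was higher, beside 33.5%, with a mean of 342 TPM, and in spleen it was lower, beside 15.9%, with 0.042 TPM. hsf5 was also called in muscle at a mean of 3.09 TPM, where testis markers summed to 0.569 to 20.5 TPM. Of 10 other chaperone genes, mostly the CCT ring, 2 were higher in brain (the pair of CLPB genes) and 3 lower (CCT2 ENSDARG00000104674, CCT4 and CCT8), beside 24.7 and 22.5% of all genes. In liver TCP1 and CCT8 were higher, beside 15.8% of all genes. The pair of CLPB genes was lower in tail, beside 16.0%, and CCT8 was lower in testis, beside 20.8%. On deposited TPM, however, TCP1 had its lowest tissue mean in liver (75.9 TPM, against 78.0 to 242 TPM elsewhere). CCT8 had means of 44.9 TPM in liver and 79.7 TPM in testis, against 42.9 to 81.2 TPM in the other tissues. CCT2 (ENSDARG00000104674) had 173 TPM in brain, against 77.6 to 272 TPM elsewhere. Unscaled fold changes are not given for these lists.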

How the data were processed

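Deposited per-library tables for 27 libraries were used, grouped by the tissue and replicate number in the labels. The submitters' processing notes name cutadapt 1.18, HISAT2 2.1.0, SAMtools 1.9, kallisto 0.43.0 and GRCz11, with no roles. The authors deposited estimated counts, which are not normalized, TPM, which is scaled for length and library, and effective lengths, which were not tested. Symbols came from a table of Ensembl identifiers and matched 29201 of 32524 genes.

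Estimated counts were rounded and fitted with edgeR 4.0.16 (TMM, quasi-likelihood) in R 4.3.3, over 25245 genes that reached 1 TPM in 3 or more libraries, with Benjamini-Hochberg adjustment. On simulated data with 200 of 25245 genes changed by a log2 fold of 2 in testis, edgeR recovered 200 and made 8 false calls. Recovery under scaling differences like those of the real libraries, whose TMM factors ran from 0.365 to 2.20, was not tested. Alternatives were DESeq2 1.42.0, limma 3.58.1 on log2(TPM + 1), unscaled, rescaled by median of ratios or with a pseudocount of 0.1, no filter, no fold limit, a replicate block and each library left out in turn. Leaving out skin or muscle was added after seeing the data. Values at 3 counts or fewer were treated as the floor, which covers counting error only. All 27 replicate pairs differed beyond counting noise (chi-square over its degrees of freedom, 5.85 to 140).

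The members, gene lists, tests and alternatives were chosen with earlier results of these data known. Named with values were all HSP90, chaperonin and small heat shock genes, HSP70 and HSP110 genes with a tissue mean of at least 5 TPM, and, per tissue, up to 5 DNAJ genes called higher and 3 called lower. The 5 most abundant DNAJ genes and the 5 members of lowest tau among those with a mean of at least 10 TPM also belonged to the rule, and of all these the text gives a selection. HSPBP1, HSPBAP1, DNAJC10, DNAJC15, DNAJC24 and DNAJC27 were named after their values were seen.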

Additional observations from a re-analysis of the deposited data

How the results depend on the processing

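Counts of members called moved with the scaling and with the fold limit. On unscaled TPM the calls higher and lower numbered 42 and 6 in brain, 22 and 5 in heart, 3 and 36 in intestine, 1 and 60 in liver, 13 and 4 in muscle, 16 and 13 in skin, 2 and 23 in spleen, 8 and 21 in tail, and 43 and 10 in testis. Shares of all genes for these unscaled counts were given above. None is given for the other settings below, so those counts show only how calls of members moved. On rescaled TPM 13 members were lower in brain, 6 higher in intestine, 2 lower in skin and 1 higher in spleen. DESeq2 called 3 higher in spleen, and so did edgeR with no filter. With no limit on the fold change, 33 were lower in brain, 42 higher and 7 lower in heart, 21 higher and 27 lower in intestine, 24 higher in liver, 10 lower in muscle, 12 lower in skin, 10 higher and 38 lower in spleen, and 15 higher in tail. With each of the 27 libraries left out in turn, members lower in muscle numbered 1 to 4, lower in skin 2 to 4 and higher in spleen 2 to 6. Without muscle replicate 2 and muscle replicate 3 the first count was 2 and 4, and without skin replicate 3 or liver replicate 2 the second was 2. Of 116 values of single genes, 9 had the opposite sign on unscaled TPM: HSP90AB1 in brain (0.36), HSPA8 (ENSDARG00000068992) in brain (0.25), HSP90B1 in liver (-0.55), HSPA9 in liver (-0.65), HSPD1 in liver (-0.34), HSPA14 in liver (-0.34), dnajc5gb in liver (-0.71), hspb15 in skin (-0.12) and DNAJC16 (ENSDARG00000059699) in skin (-0.28). The other values among these 116 kept their direction under the alternatives run. The cause was not tested.

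The replicate block left every count within 1.5 times, for example 15 members higher in brain, 26 in heart and 22 in testis, and none of the 116 values lost its call, although 1 member fewer than the 16 was higher in brain. Same-numbered libraries deviated together with a mean r of 0.107 (-0.0532 to 0.325), just over the limit of 0.1, which 54 of 108 pairs exceeded. The main fit did not take the numbers as pairs, because the labels do not say whether tissues share animals. These values do not show that same-numbered libraries are independent. Among those values, HSP90AB1 in intestine lost its call without skin (0.99) and DNAJC16 (ENSDARG00000059699) in skin without muscle (0.99). Median tau was 0.307 with a pseudocount of 0.1, 0.753 on TPM without a log and 0.355 on rescaled TPM. Without the most abundant member the share of TPM was 0.462% in brain, 0.741% in heart, 0.220% in intestine, 0.129% in liver, 0.274% in muscle, 0.288% in skin, 0.190% in spleen, 0.326% in tail and 0.516% in testis. Depth limited genes at or under 3 counts, which for HSPA4L held in 13 of 27 libraries.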

Other observations

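By replicate number, hsp70.1 was highest in replicate 1 of 8 of the 9 tissues and dnajb1b was lowest in replicate 3 of 8 of the 9. Over all genes tested, 1.52% were highest and 1.27% lowest in the same replicate number in at least 8 tissues, and of the 87 members 1 met each condition. The members thus lay near the shares of all genes, and no order of replicates is shown for the family. The genes in this paragraph were picked from the 87. hsp70l was highest in replicate 1 of 6 tissues, and hsp70.3 and dnajb1a were each lowest in replicate 3 of 6 tissues. The other way round, hspb9 was highest in replicate 3 of 5 tissues. Among these, tail had 0, 0 and 1 counts and testis 0, 0 and 6 counts, so both rest on very few reads. A cause of these values was not tested. dnajb1b had 8.46, 7.09 and 1.82 TPM in brain replicates 1, 2 and 3, and 27.02, 24.2 and 7.83 TPM in heart.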
